A study of Mus musculus with 6 samples.

Results

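The miR-30 family is a set of microRNAs (miRNAs) that are expressed in many tissues. Its rows were taken from the deposited miRNA table by name, as every entry beginning with miR-30a, miR-30b, miR-30c, miR-30d or miR-30e followed by a hyphen. The rule gave 11 of 1300 miRNAs, 5 of them 5p strands and 6 of them 3p strands. Small RNA was sequenced from whole ovaries of female C57BL/6J mice in 6 libraries. The 3 hypobaric hypoxia libraries came from mice in a low-pressure chamber simulating 6500 m at 43.12 kPa, with 8.1 kPa of oxygen. The 3 normal-pressure libraries came from mice kept in Lanzhou at 83.56 kPa, with 17.8 kPa of oxygen, at an altitude that the titles put at 1500 m and the design text at 1588 m. Before housing, both groups received levonorgestrel and ethinylestradiol by gavage. The doses, 0.1 mg/kg of levonorgestrel and 0.02 mg/kg of ethinylestradiol, are written for the hypobaric mice only, and none is written for the normal-pressure mice.

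Other labels differ among themselves. The sample descriptions of the hypobaric group give 5000 m. By the design text all mice were housed for 15 days, but the descriptions read 15 days for library 1, 16 for library 2 and 17 for library 3 of both groups. The dark phase of the normal-pressure group reads 12, 13 and 14 hours. The design text states an age of 8 weeks, the descriptions 6 to 8 weeks. Each group had 15 mice, but nothing states how many of them entered a library, so the p-values rest on the spread among these libraries, some of which may be technical. Whole ovary mixes oocytes, granulosa, theca, stromal, vascular and blood cells, and fewer cells of a type cannot be told apart from less RNA per cell.

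A miRNA hairpin is cut by Dicer into a duplex, and 1 strand usually stays in Argonaute as the guide while the opposite strand is lost. Bases 2 to 8 of the guide, the seed, pair with target messenger RNAs and lower their output. The 5p strands of the miR-30 family share a seed and are best known in kidney, heart and epithelial cells. In various tissues they were described to repress the transcription factor Snai1, the matrix regulator Ccn2 (Ctgf), the Notch ligand Dll4 in endothelium and the autophagy gene Becn1. The 3p strands have seeds of their own.

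Mature sequences were found for 7 of the 11 rows in RefSeq (build GRCm38.p6). They are printed 5′ to 3′ with the seed in capitals, to show which strands share a seed and how little separates neighbouring names. The 3 matched 5p strands have the family seed:
mmu-miR-30a-5p: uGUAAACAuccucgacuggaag
mmu-miR-30c-5p: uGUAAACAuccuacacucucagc
mmu-miR-30e-5p: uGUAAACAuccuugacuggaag
The 4 matched 3p strands fall into 2 seed groups, miR-30a with miR-30e and both miR-30c hairpins:
mmu-miR-30a-3p: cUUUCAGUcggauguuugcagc
mmu-miR-30e-3p: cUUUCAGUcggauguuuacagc
mmu-miR-30c-1-3p: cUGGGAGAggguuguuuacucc
mmu-miR-30c-2-3p: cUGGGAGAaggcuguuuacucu

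Counted from 1 at the 5′ end, miR-30a-5p and miR-30e-5p differ by a single substitution, C13U with the base of miR-30a-5p first. Their 3p strands also differ by 1, G18A. The miR-30c 3p strands differ at 3 of 22 positions. The rule by which reads matching several names were assigned is not given here, so the split between miR-30a and miR-30e on either strand is uncertain, and sums are given beside it. miR-30c-5p is cut from 2 hairpins with the same mature sequence and has 1 row in the table. Among other names in the RefSeq table, miR-384-5p shares the 5p seed and is in the deposited table.

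The hairpins of miR-30a and miR-30c-2 lie 19361 bases apart on the plus strand of chromosome 1, at chr1:23272269-23272339 and chr1:23291701-23291784 (GRCm38). In GENCODE vM21 the first overlaps no other gene and the second lies in an exon of the lincRNA Gm27028. The hairpins of miR-30c-1 and miR-30e lie 2983 bases apart on the minus strand of chromosome 4, at chr4:120769534-120769622 and chr4:120772606-120772697, both in introns of Nfyc, which encodes a subunit of the CCAAT-binding factor NF-Y. The miRNA gene Mir30f is annotated on the opposite strand at the position of Mir30e. The hairpins of miR-30a and miR-30e are printed with the mature strands in capitals, since the balance of their strands differs most from that of the other hairpins:
Mir30a: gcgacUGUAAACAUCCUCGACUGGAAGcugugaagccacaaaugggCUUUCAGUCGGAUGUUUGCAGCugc
Mir30e: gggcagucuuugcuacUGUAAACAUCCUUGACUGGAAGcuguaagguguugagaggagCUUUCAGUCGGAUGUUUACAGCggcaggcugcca

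Levels are in reads per 1000000 reads of a library (RPM). The libraries held 20976309 to 21243522 implied reads under hypobaric hypoxia and 20800777 to 22559146 at normal pressure, so 3 reads were worth 0.133 to 0.144 RPM. The lowest member count in any library was 67 reads, so all 11 members stood above that floor in every library. The gonad miRNA miR-202, as a check of the labelled tissue, was present in both strands, summing to 2191 to 3462 RPM under hypobaric hypoxia and 998 to 1349 RPM at normal pressure, and the liver miRNA miR-122-5p stayed between 0.222 and 1.51 RPM. miRNAs took 39.1% ± 1.73 of reads under hypobaric hypoxia and 33.9% ± 3.14 at normal pressure (SD, n = 3 each). Across all tested miRNAs the second principal component set hypobaric library 3 and normal-pressure library 2 apart from the other 4 libraries (28.1% of the variance), and results are given with and without that pair.

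The 5p strands carried most of the family. Together they summed to 4158, 4469 and 2972 RPM in hypobaric libraries 1, 2 and 3, and to 3070, 2177 and 3246 RPM in the 3 normal-pressure libraries. The 3p strands summed to 395, 423 and 324 RPM under hypobaric hypoxia and to 300, 256 and 281 RPM at normal pressure. The 5p sums overlapped between groups and the 3p sums did not. The share of family reads on 3p strands was 9.05% ± 0.674 under hypobaric hypoxia and 9.14% ± 1.30 at normal pressure (SD, n = 3 each). The family took 1.09% ± 0.211 of all miRNA reads under hypobaric hypoxia and 0.912% ± 0.104 at normal pressure (SD, n = 3 each).

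mmu-miR-30d-5p was the most abundant member, with a mean of 1795 RPM over the 6 libraries and rank 35 among the 1300 names. It gave 52.5% ± 2.37 of the 5p reads under hypobaric hypoxia and 55.4% ± 3.20 at normal pressure (SD, n = 3 each). miR-30b-5p and miR-30c-5p came next with means of 727 and 645 RPM, and their ranges overlapped. A further step down were miR-30e-3p, miR-30a-5p and miR-30a-3p, at means of 161, 159 and 143 RPM, whose ranges overlapped too. miR-30e-5p followed at 22.2 RPM, above miR-30c-2-3p in all 6 libraries although their ranges overlapped. The 4 remaining 3p strands, those of miR-30c-2, miR-30b, miR-30c-1 and miR-30d, had means between 4.49 and 9.24 RPM, with ranges that overlapped between neighbours. Levels of different miRNAs also carry ligation and PCR differences between sequences, so this order is that of reads.

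**Figure D1:**
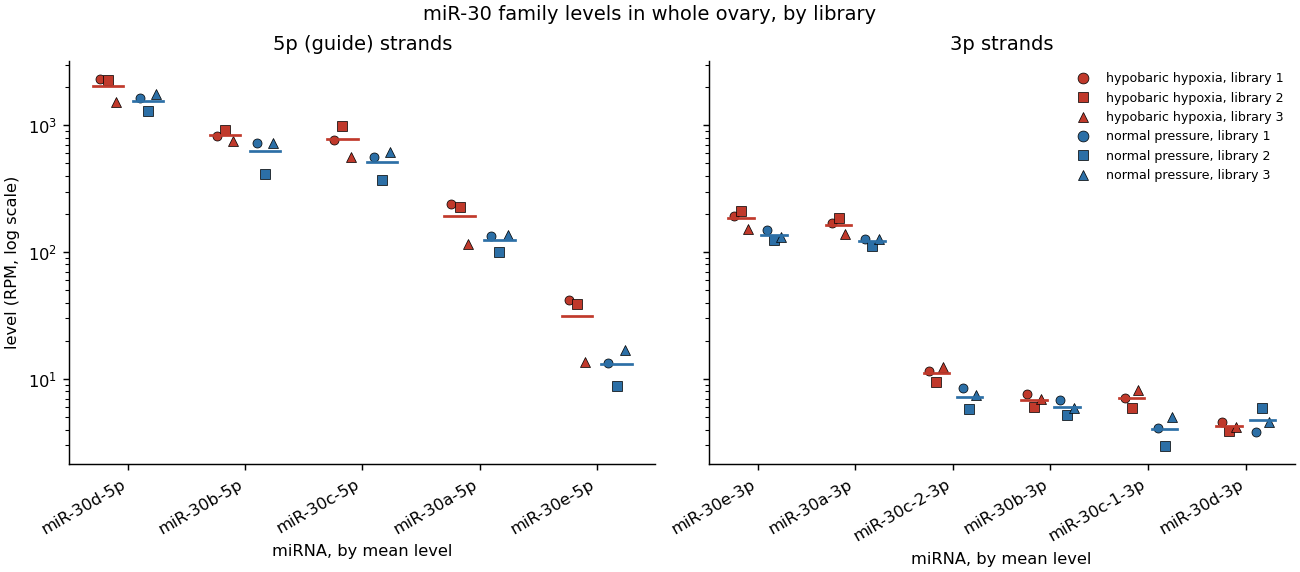
Level of each miR-30 strand in RPM (log axis), with hypobaric hypoxia in red to the left of normal pressure in blue; symbols mark libraries 1 to 3 and bars the mean of 3. miR-30d-5p is highest in every library, miR-30e-5p is the lowest 5p strand, and hypobaric library 3 (triangle) is the lowest hypobaric library in all 5 of the 5p strands.

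The balance of the strands set the hairpins apart from each other. In miR-30d the 5p strand exceeded the 3p strand 218-fold to 592-fold over the 6 libraries. In miR-30b it did so 80.0-fold to 154-fold. miR-30c-5p exceeded miR-30c-1-3p 68.8-fold to 168-fold and miR-30c-2-3p 45.0-fold to 105-fold, with a 5p row that pools both hairpins. In miR-30a the strands were near balance, with 5p over 3p at 1.40, 1.23 and 0.832 under hypobaric hypoxia and 1.07, 0.904 and 1.07 at normal pressure.

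In miR-30e the order turned round, and the 3p strand was the more abundant in all 6 libraries. The 5p over 3p ratio was 0.217, 0.182 and 0.0886 in hypobaric libraries 1, 2 and 3, and 0.0884, 0.0701 and 0.129 in normal-pressure libraries 1, 2 and 3. By reads, then, the 5p strand was not the major one of miR-30e, nor clearly of miR-30a, although it is usually called the guide. miR-30a-5p exceeded miR-30e-5p 5.69-fold to 11.4-fold, while miR-30a-3p stood at 0.839 to 0.970 of miR-30e-3p, so the same hairpin pair was split unlike on the 2 strands. The part of read assignment between these names was not tested.

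**Figure D2:**
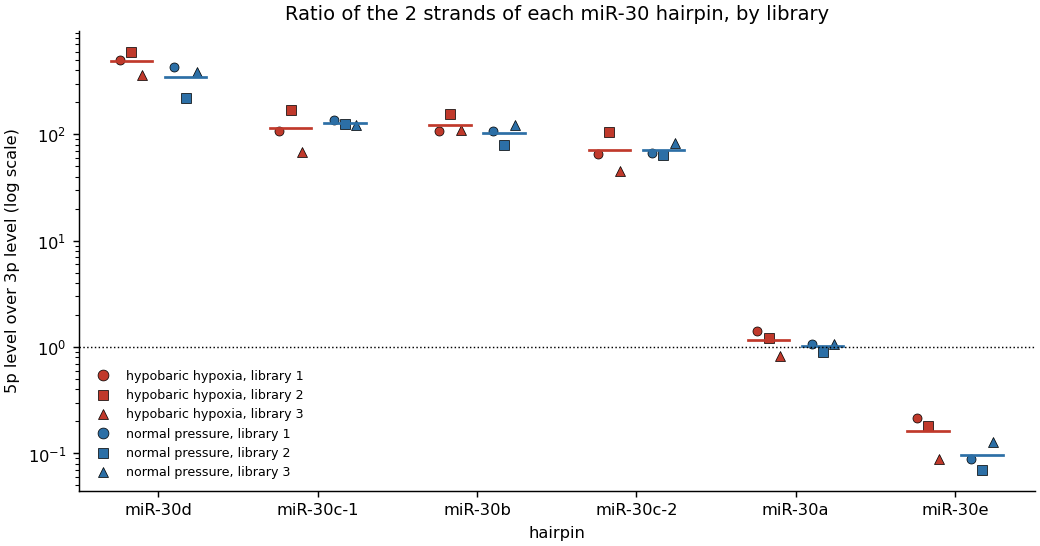
Ratio of the 5p to the 3p level of each hairpin in each library (log axis; dotted line at equal levels; bars are means of 3), hypobaric hypoxia in red and normal pressure in blue. miR-30d, miR-30b and both miR-30c hairpins lie far above 1, miR-30a lies at 0.832 to 1.40 and miR-30e at 0.0701 to 0.217.

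Between hypobaric hypoxia and normal pressure no miR-30 member passed the threshold of a limma adjusted p of 0.05, with 4.84% of the 475 tested miRNAs past it. All 11 members were tested, and 10 had positive log2 changes of RPM, against 65.7% of all tested. Scaled to the summed miRNA values 9 were positive, with miR-30b-3p at -0.0036. The positive share of all tested was not counted in that setting, where their median log2 change was -0.02. On RPM the median log2 change of the 11 was 0.46, against 0.15 over all tested miRNAs. Without adjustment 3 of the 11 had a limma p under 0.05, all of them higher. Of the 475 tested miRNAs, 68 (14.3%) were higher with such a p and 28 were lower. edgeR on whole reads called 0 members, with 5.26% of tested miRNAs called, and DESeq2 called 1, with 15.1% called of the 418 miRNAs to which it gave an adjusted p. The groups did not overlap in 5 of the 11, all higher under hypobaric hypoxia, while 19.2% of all tested miRNAs were higher without overlap. Because 1 RPM was added before taking logs, the log2 changes of low miRNAs are smaller than those of their RPM.

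Among the 5p strands, mmu-miR-30e-5p had the greatest log2 change of the 11. It was at 42.0, 38.7 and 13.5 RPM in hypobaric libraries 1, 2 and 3, and at 13.3, 8.82 and 17.0 RPM in the 3 normal-pressure libraries. Hypobaric libraries 1 and 2 lay above every normal-pressure library, and hypobaric library 3 lay within their range. The log2 change was 1.10 ± 0.42 (SE), with a limma adjusted p = 0.178. Its 95% interval ran from 0.15 to 2.05 before adjustment. DESeq2 on whole reads called miR-30e-5p (adjusted p = 0.0343) and edgeR did not (adjusted p = 0.160). Without hypobaric library 3 limma gave 1.60 ± 0.28 (SE) with adjusted p = 0.0169. That library was the lowest of its group, so leaving it out raises the change and removes spread. With any other single library left out, the limma adjusted p was 0.163 (without normal-pressure library 3) to 0.477 (without hypobaric library 2). Over its 18 alternatives the adjusted p of miR-30e-5p ran from 0.00538 to 0.477.

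mmu-miR-30a-5p, its neighbour by sequence, showed the same order of libraries within the hypobaric group. It was at 239, 226 and 116 RPM in hypobaric libraries 1, 2 and 3, and at 135, 100.2 and 136 RPM in the 3 normal-pressure libraries. Again hypobaric library 3 lay within the normal-pressure range and the other hypobaric libraries lay above it. The log2 change was 0.59 ± 0.30 (SE), with a limma adjusted p = 0.293, and without hypobaric library 3 the log2 change was 0.92 ± 0.22 (SE) with a limma adjusted p = 0.0507. Summed, miR-30a-5p and miR-30e-5p were at 225 ± 83.4 RPM under hypobaric hypoxia and 137 ± 24.2 RPM at normal pressure (SD, n = 3 each), a ratio of means of 1.65.

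mmu-miR-30d-5p, the dominant strand, was at 2299, 2286 and 1521 RPM in hypobaric libraries 1, 2 and 3, and at 1629, 1285 and 1753 RPM in the 3 normal-pressure libraries. The groups overlapped through hypobaric library 3. The log2 change was 0.37 ± 0.21 (SE), with a 95% interval from -0.10 to 0.85 and a limma adjusted p = 0.339. Leaving out single libraries gave miR-30d-5p log2 changes from 0.24 (without normal-pressure library 2) to 0.57 (without hypobaric library 3).

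mmu-miR-30b-5p was the only 5p strand whose groups did not overlap. It was at 816, 925 and 757 RPM in hypobaric libraries 1, 2 and 3, and at 731, 415 and 720 RPM in the 3 normal-pressure libraries. The gap between the nearest libraries was small beside the spread at normal pressure, and the limma adjusted p was 0.310 with a log2 change of 0.46 ± 0.24 (SE). Without normal-pressure library 2 the log2 change of miR-30b-5p was 0.19 ± 0.16 (SE), and without that library and hypobaric library 3 it was 0.26 ± 0.17 (SE). mmu-miR-30c-5p was at 762, 993 and 564 RPM under hypobaric hypoxia and at 563, 369 and 619 RPM at normal pressure. Its groups overlapped, with a log2 change of 0.58 ± 0.27 (SE) and a limma adjusted p = 0.274. Without normal-pressure library 2 the log2 change of miR-30c-5p was 0.35 ± 0.24 (SE), and without hypobaric library 2 it was 0.38 ± 0.28 (SE).

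**Figure D3:**
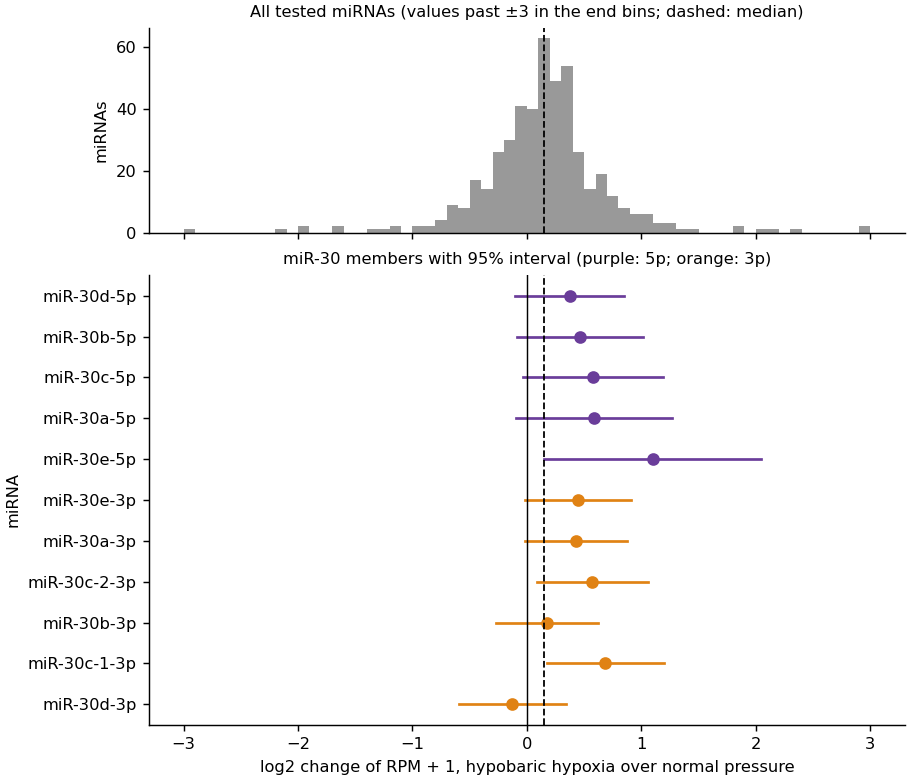
Upper panel, histogram of the log2 changes of all 475 tested miRNAs, hypobaric hypoxia over normal pressure; lower panel, the 11 miR-30 members with 95% intervals, 5p in purple and 3p in orange (dashed line: median of all tested, 0.15). Estimates run from -0.13 for miR-30d-3p to 1.10 for miR-30e-5p, and the intervals of miR-30e-5p, miR-30c-2-3p and miR-30c-1-3p lie above 0 before adjustment.

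Of the 3p strands, 4 of 6 were higher under hypobaric hypoxia without overlap, where 19.2% of all tested miRNAs were. Per 1000000 miRNA reads it was 3 of the 6, with overlap in miR-30e-3p, where 10.3% of all tested miRNAs were higher without overlap. miR-30e-3p was at 193, 213 and 152 RPM under hypobaric hypoxia and at 150, 126 and 131 RPM at normal pressure. miR-30a-3p was at 171, 185 and 139 RPM under hypobaric hypoxia and at 126, 111 and 127 RPM at normal pressure. Their log2 changes were close, 0.44 ± 0.20 (SE) for miR-30e-3p and 0.43 ± 0.20 (SE) for miR-30a-3p, with limma adjusted p of 0.273 and 0.268. Summed, both were at 351 ± 53.9 RPM under hypobaric hypoxia and 257 ± 20.0 RPM at normal pressure (SD, n = 3 each).

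The miR-30c 3p strands had the smallest p of the family, at low levels. miR-30c-1-3p was at 7.03, 5.91 and 8.19 RPM under hypobaric hypoxia and at 4.10, 2.97 and 5.05 RPM at normal pressure, which is 67 to 174 reads per library. Its log2 change was 0.69 ± 0.23 (SE), with a limma adjusted p = 0.133. miR-30c-2-3p was at 11.7, 9.49 and 12.5 RPM under hypobaric hypoxia and at 8.43, 5.81 and 7.55 RPM at normal pressure. Its log2 change was 0.57 ± 0.21 (SE), with a limma adjusted p = 0.171. These hairpins lie on different chromosomes.

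The 3p strands of miR-30b and miR-30d overlapped between groups. miR-30b-3p was at 7.60, 6.01 and 6.97 RPM under hypobaric hypoxia and at 6.86, 5.19 and 5.87 RPM at normal pressure, with a log2 change of 0.17 ± 0.20 (SE) and a limma adjusted p = 0.630. Without normal-pressure library 2 the log2 change of miR-30b-3p was 0.09 ± 0.21 (SE). miR-30d-3p was at 4.62, 3.86 and 4.19 RPM under hypobaric hypoxia and at 3.81, 5.90 and 4.57 RPM at normal pressure. It was the only member with a negative log2 change, -0.13 ± 0.21 (SE), with a limma adjusted p = 0.745, and the log2 change was 0.011 without normal-pressure library 2.

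Whether the strands of 1 hairpin changed unequally was tested on the log2 ratio of 5p to 3p over all 138 strand pairs of the table with both strands at a mean of at least 1 RPM. No miR-30 pair passed a limma adjusted p of 0.05, with 1.45% of the pairs past it. That share was the 2 pairs of miR-199a-3p (log2 change of the ratio -6.19) and miR-199b-3p (7.60). The levels of these 3p names went opposite ways between groups. miR-199a-3p averaged 2632 RPM under hypobaric hypoxia and 31.0 RPM at normal pressure, and miR-199b-3p 21.6 and 2006 RPM. Both also passed the threshold among the 475 tested miRNAs, while miR-199a-5p and miR-199b-5p each had a log2 change of 0.35. The part of read assignment between these names was not tested, so these pairs need not be changes of strand balance. An unadjusted p under 0.05 was found for 0 of the 6 miR-30 pairs, against 14.5% of all pairs. The greatest change of ratio was in miR-30e, 0.66 ± 0.37 (SE) with a 95% interval from -0.20 to 1.51 and adjusted p = 0.393. miR-30d had 0.50 ± 0.30 (SE), miR-30b 0.29 ± 0.26 (SE), miR-30a 0.15 ± 0.25 (SE), the miR-30c-2 pair 0.01 ± 0.32 (SE) and the miR-30c-1 pair -0.11 ± 0.32 (SE). Each of the 6 intervals included 0. The groups overlapped in all 6 ratios, while 21.7% of all pairs had ratios without overlap.

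The libraries were ordered alike in much of the family. Normal-pressure library 2 was the lowest of the 6 libraries in all 5 of the 5p strands and in 5 of the 6 3p strands, miR-30d-3p being the exception. Hypobaric library 3 was the lowest hypobaric library in all 5 of the 5p strands and in miR-30a-3p and miR-30e-3p. In the miR-30c 3p strands hypobaric library 3 was instead the highest of all 6. Over the 6 libraries, Pearson's r between pairs of 5p strands was 0.748 to 0.989. Between the 5p strands and the 3p strands of miR-30a and miR-30e it was 0.768 to 0.950, and with those of miR-30c 0.488 to 0.764. With miR-30b-3p and miR-30d-3p it ran from -0.865 to 0.650, with a median of 0.0038. All rows of a library share its depth, total and group, so these coefficients are a description.

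**Figure D4:**
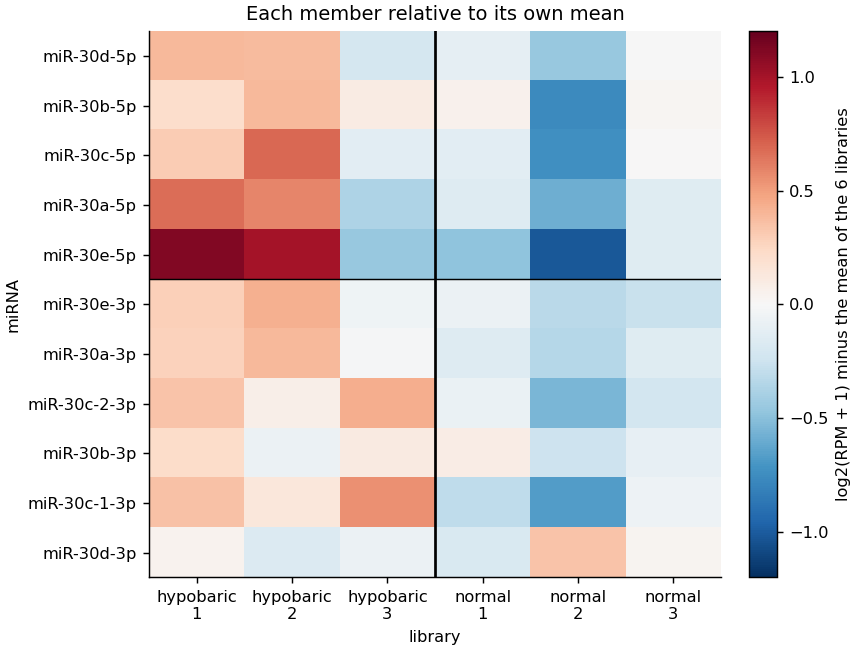
Heat map of log2(RPM + 1) of each miR-30 strand minus its mean over the 6 libraries, hypobaric libraries left and normal-pressure libraries right, 5p strands above the line and 3p strands below. Hypobaric libraries 1 and 2 are above the mean in all 5p strands, normal-pressure library 2 is below it in every row except miR-30d-3p, and hypobaric library 3 differs in sign between the 5p strands of miR-30a, miR-30c, miR-30d and miR-30e and the 3p strands of miR-30c.

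Without hypobaric library 3 and normal-pressure library 2, all 5 of the 5p strands were higher in both remaining hypobaric libraries than in both remaining normal-pressure libraries, and so were 4 of the 6 3p strands. With 2 libraries against 2, 38.6% of the 479 tested miRNAs were higher in that way. In that fit 2 members passed limma, miR-30e-5p with a log2 change of 1.37 ± 0.22 (SE) and adjusted p = 0.00538, and miR-30a-5p with 0.78 ± 0.19 (SE) and adjusted p = 0.0341, while 7.52% of tested miRNAs passed as higher. The pair was chosen from these same data, and each of its libraries was the lowest of its group in all 5 of the 5p strands. Leaving it out removes spread within the groups, so the adjusted p-values of this fit are a description. Hypobaric library 3 also held the least miR-210-3p of its group, a miRNA induced by hypoxia-inducible factors. The level of miR-210-3p was 16.0, 15.1 and 9.98 RPM in hypobaric libraries 1, 2 and 3, against 3.48, 4.52 and 4.52 RPM in the normal-pressure libraries. The summed erythroid markers described below had another order, at 15085, 9459 and 11474 RPM in hypobaric libraries 1, 2 and 3. Whether these libraries differed in hypoxia, or the miR-30 levels with it, was not tested.

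Scaling also bore on these values. The total behind RPM counts reads beyond miRNAs, and miRNAs took more of it in each hypobaric library than in any normal-pressure library. Scaled to the summed miRNA values, the 11 members had a median log2 change of 0.26 and all tested miRNAs one of -0.02. With TMM scaling these medians were 0.28 and 0.00. Per 1000000 miRNA reads the groups did not overlap in 3 members, miR-30a-3p, miR-30c-1-3p and miR-30c-2-3p, against 10.3% of tested miRNAs higher without overlap. miR-30e-5p then averaged 79.9 ± 38.5 under hypobaric hypoxia and 38.0 ± 9.79 at normal pressure per 1000000 miRNA reads (SD, n = 3 each).

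**Figure D5:**
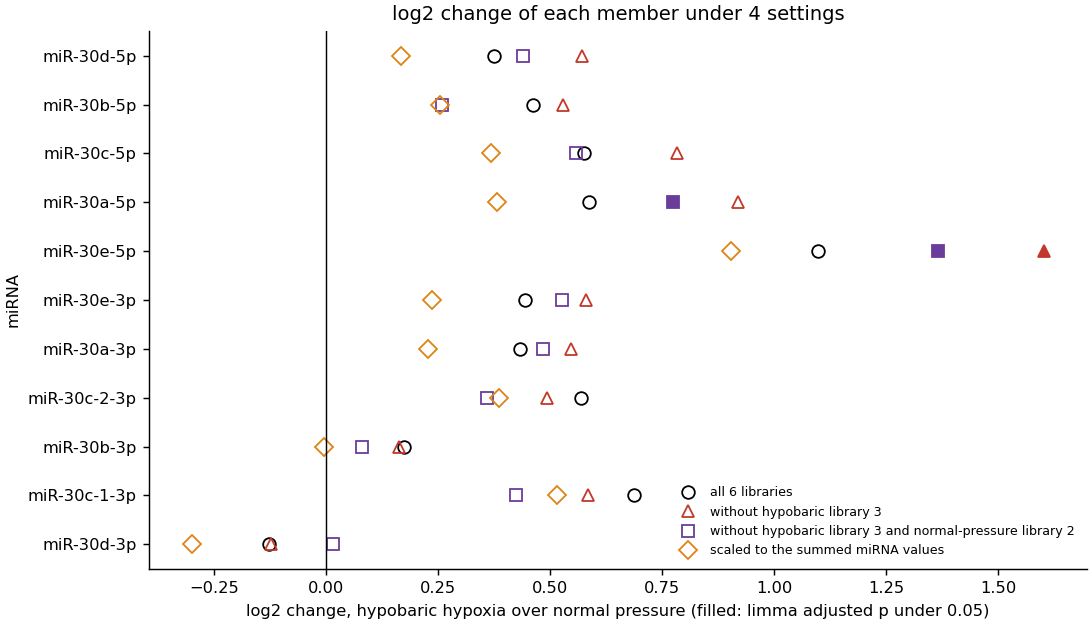
Log2 change of each member under 4 settings (symbols); filled symbols have a limma adjusted p under 0.05. The filled ones are miR-30e-5p without hypobaric library 3 and both miR-30e-5p and miR-30a-5p without that library and normal-pressure library 2, and scaling to the summed miRNA values moves each member to the left.

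Of the lists of cell markers, the erythroid one and the gonad pair miR-202-5p and miR-202-3p moved with the groups. Of all 475 tested miRNAs, 15 passed the threshold as higher. Among them were both tested gonad strands, with the sums given above. The erythroid list (miR-451a and the strands of miR-144 and miR-486) had 4 of 6 tested members higher, and its 7 rows summed to 9459 to 15085 RPM under hypobaric hypoxia and 726 to 1577 RPM at normal pressure. Its defining miRNA, miR-451a, was above 0 in every library, and miR-144-5p was at 0 in normal-pressure library 1. The leukocyte (6 tested), endothelial (2), smooth muscle (3), epithelial (5) and striated muscle lists (3) had no member past the threshold, and their summed levels overlapped between groups. The leukocyte sums were 1956 to 2376 RPM under hypobaric hypoxia and 1339 to 2119 RPM at normal pressure. The endothelial sums were 17290 to 21334 RPM under hypobaric hypoxia and 15323 to 20264 RPM at normal pressure. The part of these cells in the miR-30 values was not tested.

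Other families of widely expressed miRNAs were described in the same fit. None of the 9 let-7 and miR-98 5p strands passed, and their median log2 change was 0.13. Of the miR-26 5p strands (2) and the miR-29 3p strands (3) none passed either, with medians of 0.33 and 0.23. Log2 changes ran from -0.13 to 1.10 over the 11 miR-30 members, which hold both strands. Over the 5p strands of miR-30 alone they ran from 0.37 to 1.10, with a median of 0.58. In the let-7 list, which holds 5p strands only, they ran from -0.36 to 0.41. No difference between families was tested. miR-384-5p, which shares the miR-30 seed, was at 1.89, 2.05 and 2.21 RPM under hypobaric hypoxia and at 2.14, 0.887 and 1.44 RPM at normal pressure, far below the 5p strands of the family, with a log2 change of 0.32 ± 0.23 (SE) and a limma adjusted p = 0.443.

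Across the 6 libraries, the 5 other miRNAs most like the summed 5p strands were miR-374b-5p, miR-195a-5p, miR-18a-5p, miR-467d-3p and miR-487b-3p. Pearson's r on the log2 scale lay between 0.972 and 0.982 for these. Of the 464 other tested miRNAs, 41 had r above 0.9, and the median was 0.428. The likeness rests on 6 libraries in 2 groups. miR-374b-5p was at 134, 164 and 94.8 RPM under hypobaric hypoxia and at 103, 52.4 and 96.6 RPM at normal pressure, with hypobaric library 3 and normal-pressure library 2 lowest in their groups, as in the 5p strands of miR-30. None of the 5 passed in limma, with adjusted p from 0.219 to 0.280.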

How the data were processed

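Small RNA libraries were made from 1.3 µg of total RNA by gel selection, adapter ligation and PCR, with single-end reads of 50 bases, per the labels' protocols. Bowtie2, DESeq2 and GRCm38.p6 appear in the submitters' processing notes without a role. The deposited table is named TPM, and its values are RPM, reads per 1000000 of a total set by the authors: within a tolerance of 0.0005 RPM, 100% of the values of each library were whole reads of exactly 1 total. Floors in reads cover counting error only, since molecules were not tagged before PCR.

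Groups came from the titles. Hypobaric hypoxia was compared with normal pressure by limma 3.58.1 in R 4.3.3 on log2(RPM + 1), two-sided, with an intensity trend. The 475 miRNAs averaging 1 RPM or more were tested, and p-values were adjusted over them after Benjamini and Hochberg. The strand ratio used the same test over 138 pairs. Alternatives were other pseudocounts, filters and scalings, edgeR 4.0.16 and DESeq2 1.42.0 on whole reads, no trend, the replicate number as a block, and libraries left out. Scripts were tested on simulated data. Tables and figures used Python 3.11.15, numpy 2.4.6, pandas 2.3.3 and matplotlib 3.10.9. Sequences are RefSeq's and annotation is GENCODE vM21.

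The members, marker lists and tests were chosen with earlier results of these data known. Named miRNAs are all members, names sharing the 5p seed, miR-210-3p, examples from marker lists, the strand pairs past the threshold, and the 5 with the highest r with the summed 5p strands.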

Additional observations from a re-analysis of the deposited data

How the results depend on the processing

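Under 18 alternatives (17 for the 4 lowest 3p strands) the 11 log2 changes stayed on the same side of the threshold, except that miR-30e-5p passed with DESeq2, without hypobaric library 3 and without the pair of hypobaric library 3 and normal-pressure library 2, and miR-30a-5p passed without the pair. The number of members past the threshold was 1 with DESeq2 and 2 without the pair, and 0 to 1 with single libraries left out. The number of all miRNAs past it was 63 with DESeq2 and 49 without the pair, and 10 to 34 with single libraries left out, against 23. Of the log2 changes, miR-30b-3p turned to -0.0036 with scaling to summed miRNA values. miR-30d-3p turned to 0.015 without the pair, and leaving out single libraries gave it -0.25 to 0.011, the highest without normal-pressure library 2. Of the changes of the 5p to 3p ratio on the log2 scale, single libraries left out gave miR-30a -0.0023 (without hypobaric library 1) to 0.37. They gave miR-30c-1 -0.42 to 0.20, the highest without hypobaric library 3, and it was 0.13 without the pair. They gave miR-30c-2 -0.30 (without hypobaric library 2) to 0.29, negative also without normal-pressure library 1 or 2, and it was -0.051 with a pseudocount of 0.1 RPM. None of these 5 changes passed under any setting run, and their causes were not tested. With a mean of at least 10 RPM, 7 members and 2 strand pairs remained in the test. The share of higher calls among all miRNAs was 65.2% as reported (15 higher, 8 lower) and 38.7% with scaling to summed miRNA values (12 higher, 19 lower). Same-numbered libraries did not all deviate together (r of deviations from the group means 0.346, -0.469 and -0.288), and not every library correlated best with its own number. With 3 libraries per group these coefficients cannot decide whether the numbers pair the libraries. With the replicate number as a block 23 miRNAs passed, 0 of them members, and 0 strand ratios of the family passed. With 3 libraries per group, the standard errors of the members' log2 changes were 0.20 to 0.42.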
